A study of Saccharomyces cerevisiae with 14 samples.

Results

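The RNA of wild-type budding yeast was compared between purified quiescent (Q) cells and cells growing in log phase. The genes described are all those of the deposited expression table with a unique name, a value in both conditions and at least 1 FPKM in one of them. FPKM is a fragment count corrected for gene length and library size, and here it was also put on a scale of RNA per cell. There were 6375 such genes of 6598 uniquely named genes. Of the others, 133 had no value in Q cells and 90 were under 1 FPKM in both conditions. Just inside the limit stood YBL044W, with 1.00 FPKM in log against 0.233 in Q cells, and just outside it YNL203C, with 0.675 and 0.989 FPKM.

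The cells were of the laboratory strain W303 and carried no engineered change. Log cells were taken at an optical density (OD600) of 0.4 to 0.6, in 4 libraries: 2 isolates, each with 0.2 and with 1 equivalents of ERCC spike-in RNA. Q cells came from stationary cultures after 7 days, as a fraction separated on a Percoll density gradient, in 2 libraries of 2 isolates with 1 spike equivalent. The same table holds wild-type DS cells, harvested 2 hours after glucose ran out, and an rpd3 deletion, which lacks a histone deacetylase; both are used here only as values beside the main comparison. The libraries were strand-specific and depleted of ribosomal RNA.

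Yeast that has used up its glucose switches from fermentation to respiration of ethanol and acetate and then stops dividing. A part of such a culture becomes quiescent: dense, unbudded cells that have stored trehalose and glycogen, resist heat and drying, and can return to growth when fed. Nutrient kinases of the TORC1 and protein kinase A pathways restrain this programme during growth, and the stress factors Msn2, Msn4 and Gis1 act in it once those kinases are inactive.

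The spike-ins were used by the authors to put the values on a scale of RNA per cell. On that scale a lower value is read as less of that RNA per cell and not only a smaller share. The size of the shift common to most genes rests on this scaling, which the deposited values give no way to check. Each condition has 1 value that combines its libraries. There is therefore no spread between isolates, no SD and no test behind any difference given here, and the read depth is unknown. A gene is called higher or lower where its values differ at least 2-fold, and the change is the difference of the log2 values, Q minus log, with nothing added to the FPKM. In bulk RNA a gene with less signal in fewer cells and one with less RNA in every cell cannot be told apart.

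Nearly the whole transcriptome was lower per cell in quiescence. The median gene had 39.5 FPKM in log, 21.1 in DS and 1.41 in Q cells. Of the 6375 genes 6041 (94.8%) were lower in Q than in log cells by 2-fold or more, and 127 (1.99%) were higher by as much. The remaining 207 lay within 2-fold. The median change was -4.93 on the log2 scale, a level 30.6-fold lower, and the quartiles were -6.46 and -3.54. Summed FPKM in Q cells were 4.01% of the log sum.

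Because the scale moves most genes together, each change was also read against that of the median gene. On this relative scale the transcriptome split almost evenly, with 2024 genes (31.7%) at least 2-fold above the median gene and 2073 (32.5%) at least 2-fold below it. A gene that stands above the median gene can still be far lower per cell, and both readings are given below where they differ in direction. With both columns scaled to an equal sum of FPKM, the counts were 1712 above and 2356 below.

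Low levels in Q cells set a limit on the size of the decreases. In Q cells 41.3% of the genes were under 1 FPKM, against 0.204% in log cells. These levels are on the per-cell scale, where FPKM times gene length summed in Q cells to 5.87% of the log sum. The same FPKM is therefore a larger share of the RNA in Q than in log cells. At least 10 FPKM was reached by 725 genes in Q and 5579 in log cells, and at least 100 FPKM by 57 and 1537. A decrease of at least 1024-fold was recorded for 75 genes, of which 60 were under 1 FPKM in Q cells. How many reads lie behind such values is unknown, and the largest decreases are given as the table has them.

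**Figure D1:**
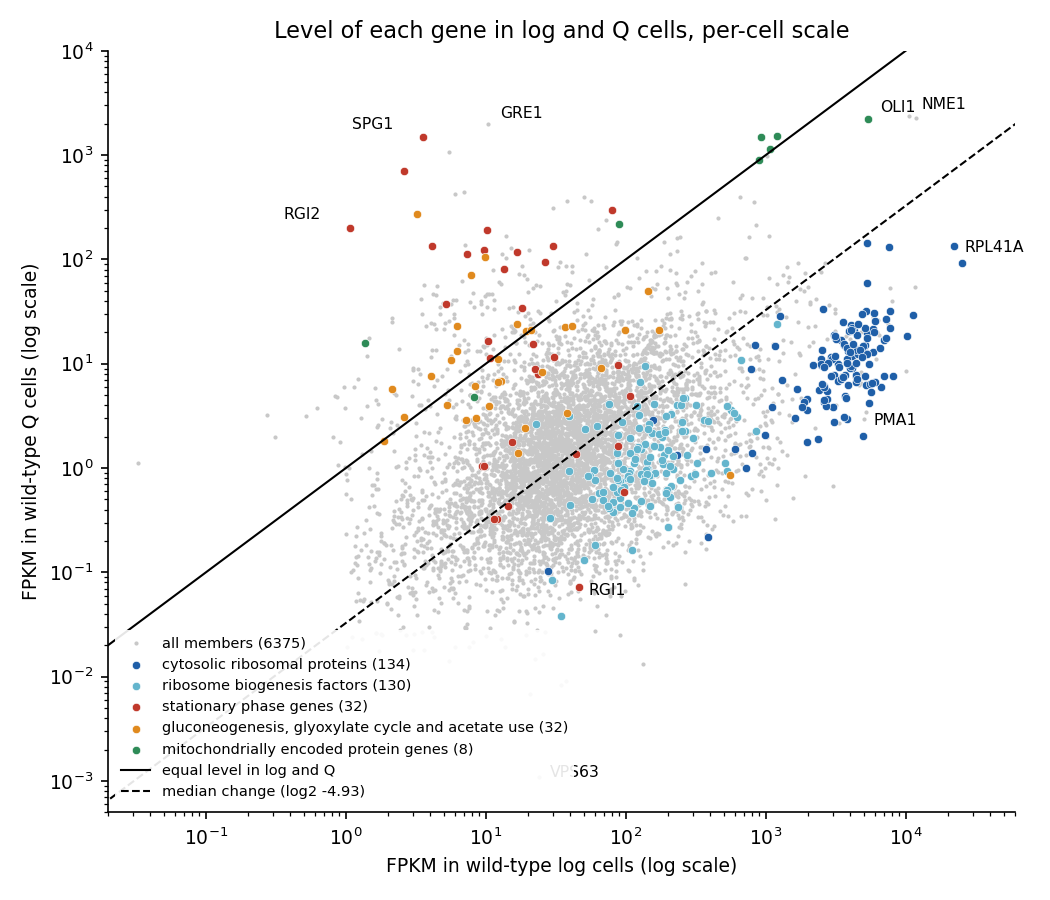
Each point is a gene, with its FPKM in wild-type log cells on the x axis and in wild-type Q cells on the y axis, both on log scales and each a single pooled value; 5 gene lists are coloured. Most points lie below the solid line of equal level and around the dashed line of the median change (-4.93). The ribosomal protein genes lie below the dashed line. Most stationary phase genes and the mitochondrially encoded genes lie above it, while some stationary phase genes, such as RGI1 (-9.31), lie below it.

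The level in log cells and the change were related. The genes were cut into 10 groups of equal size by log level. In the lowest group (median 4.41 FPKM) the median change was -3.42, and 76 of these 638 genes were higher in Q cells. In the highest group (median 640.0 FPKM) the median change was -7.55, and 0 of 638 were higher. The median level in Q cells still went up from group to group, from 0.398 to 5.92 FPKM. Across the 6375 genes the Spearman correlation of the log level with the Q level was 0.38, and that of the DS level with the Q level was 0.70 over the genes with both values. The log level enters both measures of the relation with the change, so part of that relation follows from how it is computed. Gene length, known for 5863 genes matched to the reference, had a correlation of 0.01 with the change.

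**Figure D2:**
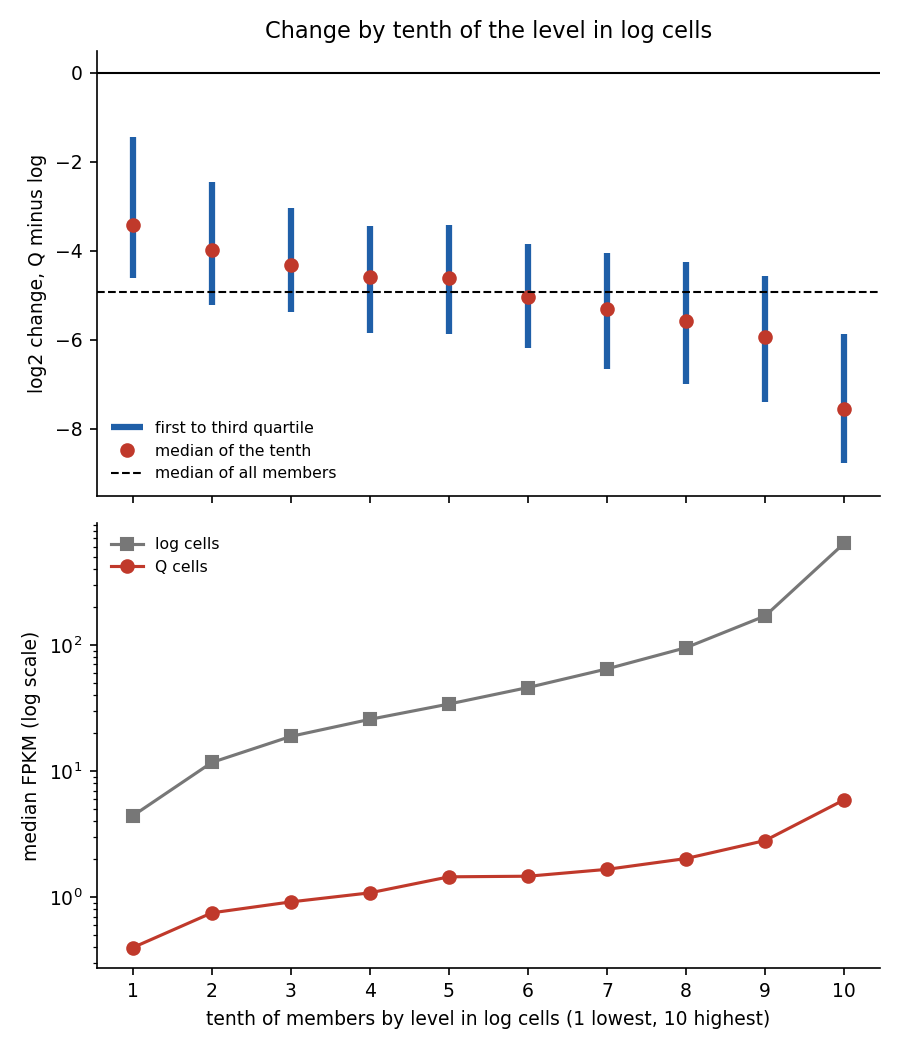
The upper panel gives the log2 change (Q minus log) for 10 groups of the genes by their level in log cells, as median and quartiles, and the lower panel gives the median FPKM of each group in log and Q cells on a log scale. The median change goes from -3.42 in the lowest group to -7.55 in the highest, while the median Q level goes from 0.398 to 5.92 FPKM.

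The 127 genes that were higher in Q cells were mostly low in growing cells. Their median level was 6.02 FPKM in log, 103 in DS and 38.6 in Q cells, and 84 of them were under 10 FPKM in log cells. A 4-fold difference was reached by 80 genes, an 8-fold one by 34 and a 16-fold one by 12. Under 10 FPKM in both conditions were 25 of the 127, and 46 carry only a systematic name. Of the 127 genes, 54 are on one of the gene lists described below, as are 2181 of all 6375 genes.

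SPG1 had the largest increase of all genes. It encodes a protein needed for survival in stationary phase at high temperature, and stood at 3.57 FPKM in log, 798 in DS and 1487 in Q cells, a change of 8.70. SPG4, a stationary phase gene of the same naming series, went from 2.59 in log to 1092 in DS and 706 FPKM in Q cells (change 8.09). Both were among the least abundant RNAs of growing cells and among the 12 most abundant of quiescent cells. RGI2, a protein involved in energy metabolism under respiration, had 1.07, 461 and 201 FPKM in log, DS and Q cells (change 7.55).

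A pair of hydrophilins, small and very water-soluble proteins made on drying or osmotic stress, followed closely. GRE1 stood at 10.4 FPKM in log, 2680.0 in DS and 1993 in Q cells (change 7.59). SIP18 stood at 5.50, 6195 and 1071 FPKM (change 7.61). Both were higher in DS than in Q cells. The small heat shock protein gene HSP26, whose product holds unfolded proteins in a soluble state, had 6.95 FPKM in log, 6649 in DS and 444 in Q cells (change 6.0). HSP12, a membrane-stabilising stress protein, was already at 37.8 FPKM in log cells, reached 15297 in DS and stood at 361 in Q cells (change 3.26).

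Several transporters and metabolic enzymes were also among the largest increases. ADY2, an acetate transporter, had 3.22 FPKM in log, 670.5 in DS and 272 in Q cells (change 6.40). HXT5, the hexose transporter of slowly growing and starved cells, had 10.2, 1879 and 192 FPKM (change 4.23). ACS1, the acetyl-CoA synthetase that works in the absence of glucose, changed by 3.42, and JEN1, the lactate and pyruvate transporter, by 3.16. All 4 stood highest in DS cells and lower, but still far above log, in Q cells. NDE2, an external NADH dehydrogenase of mitochondria, had 3.61 FPKM in log, 552 in DS and 57.2 in Q cells.

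Other named genes among the 30 largest increases covered several roles. SPS100, a spore wall maturation protein, changed by 5.01, and HBT1, a substrate of a ubiquitin-like modifier in cell polarity, by 3.66. DDR2, a multistress response gene, changed by 3.60, PHM7 of unknown function by 3.48, MSC1 by 3.35 and the endosomal Rab GTPase YPT53 by 3.55. The peroxisomal thiolase POT1 changed by 3.22. Among the first 10 were also 2 genes with systematic names, YKL065W-A (change 6.13) and YNL195C (4.29), to which no function is given here.

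The limit of 2-fold has no special standing among these values. Just inside it were ECI1, an isomerase of fatty acid breakdown (1.05), CAT8, the activator of gluconeogenic genes (1.08), and GTT1, a glutathione transferase (1.13). Just outside it were the mitochondrial intron frame AI5_ALPHA (0.99), PCK1, the enzyme that commits carbon to gluconeogenesis (0.96), and the proteinase inhibitor PAI3 (0.93).

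The rpd3 deletion gives a reading of the same genes in other libraries. Of the 127 genes 120 had values in mutant log and mutant Q cells, and 89 of these were at least 2-fold higher in mutant Q than in mutant log cells, while none was at least 2-fold lower. Among all 6351 members with mutant values, 5.01% were at least 2-fold higher. In mutant Q cells SPG1 stood at 2110.0 FPKM, SPG4 at 1820.3, GRE1 at 489 and SIP18 at 352. The first pair was above its wild-type Q level and the hydrophilin pair below it.

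**Figure D3:**
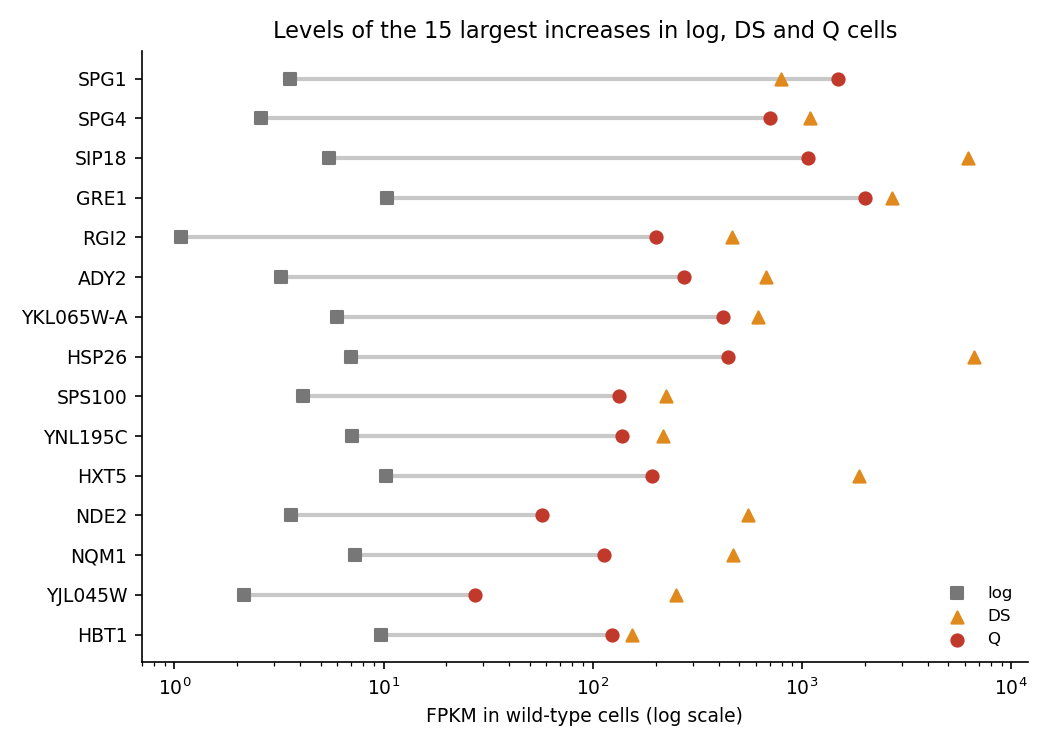
FPKM on a log scale in wild-type log (square), DS (triangle) and Q (circle) cells for the 15 largest increases among genes with at least 10 FPKM in log or Q, each a single pooled value. SPG1 is highest in Q cells (1487 FPKM), and the other 14 genes are highest in DS cells, from GRE1 (2680.0 in DS, 1993 in Q) to HSP26 (6649 in DS, 444 in Q).

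Promoters of the higher and of the lower genes were compared by the short motifs they hold. The window was 250 bases before to 50 bases after the first coding base of each gene, in the NCBI RefSeq annotation of the S288C reference (R64). The expression table gives no coordinates, W303 can differ from S288C in single bases, and a match is only a run of letters. The stress response element AGGGG (both strands), the binding motif of Msn2 and Msn4, was in 44.0% of 109 promoters of genes higher in Q cells. It was in 29.2% of 1710 promoters of the other genes at least 2-fold above the median gene and in 21.5% of 2070 within 2-fold of it. Of promoters 2-fold to 8-fold below the median gene 14.8% of 1342 held it, and of those at least 8-fold below 12.8% of 584. The share over all 6001 promoters was 21.6%, so the order of the shares followed the order of the changes. The core AGGGAT of the post-diauxic-shift element of Gis1 ran the same way, from 16.5% over 12.6%, 8.6% and 7.2% to 5.8%, with 9.3% of all promoters. Neither of the 2 runs of letters contains the other.

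The motifs of ribosome biogenesis genes ran the other way. The letters of the RRPE element, AAATTTT, were in 11% of promoters of genes higher in Q cells and in 35.8% of those at least 8-fold below the median gene, with 23.2% over all promoters. The PAC element, GATGAG, was in 14.7% of the first and 22.1% of the last class, with 20.4% over all; its highest share, 27.0%, was in the class 2-fold to 8-fold below. CTCGAG, the motif of Xbp1, a repressor of quiescent cells, was in 2.8% of the first and 12% of the last class, with 5.3% over all. Single gene lists, described below, did not all follow the classes. The 32 stationary phase promoters held CTCGAG in 15.6% and AGGGAT in 3.1%. The 39 promoters of hydrophilins and Msn2/4 targets held them in 2.6% and 38.5%. The other motifs scanned are given as shares of the first class, the last class and all promoters. CCAAT of the Hap complex was in 44.0%, 43.2% and 43.3%, and CCCATAC of Rap1 in 0.9%, 2.2% and 1.9%. TGACTCA of Gcn4 was in 1.8%, 4.1% and 2.7%. ACGCGT of MBF was in 1.8%, 4.5% and 3.1%, and CGCGAAA of SBF in 0.9%, 5.0% and 3.6%. The first class has only 109 promoters. Median GC content of the windows was 36.3% in the first and 35.3% in the last class.

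The promoters of 8 genes show these letters in place, 5′ to 3′ on the coding strand, with the matches in capitals. They were taken among genes with at least 10 FPKM in 1 condition. SPG1, the largest increase (chrVII:962768-963067, minus strand), holds neither AGGGG nor AGGGAT on either strand, so its window is all in lower case. SPS100 (chrVIII:379150-379449, minus), NDE2 (chrIV:302961-303260, plus) and NQM1 (chrVII:581387-581686, minus) are the largest increases with 2 AGGGG matches each, which lie between 138 and 176 bases before the start codon.
SPG1: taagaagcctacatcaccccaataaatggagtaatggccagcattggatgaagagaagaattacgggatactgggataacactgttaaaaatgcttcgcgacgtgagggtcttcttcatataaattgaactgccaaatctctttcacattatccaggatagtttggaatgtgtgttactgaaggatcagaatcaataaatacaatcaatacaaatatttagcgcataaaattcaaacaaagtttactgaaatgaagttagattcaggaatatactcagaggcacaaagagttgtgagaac
SPS100: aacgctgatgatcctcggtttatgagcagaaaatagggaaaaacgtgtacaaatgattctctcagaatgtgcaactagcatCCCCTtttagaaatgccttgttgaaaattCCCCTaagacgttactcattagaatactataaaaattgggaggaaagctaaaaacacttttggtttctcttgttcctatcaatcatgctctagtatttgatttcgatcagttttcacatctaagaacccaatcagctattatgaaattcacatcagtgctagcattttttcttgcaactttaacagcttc
NDE2: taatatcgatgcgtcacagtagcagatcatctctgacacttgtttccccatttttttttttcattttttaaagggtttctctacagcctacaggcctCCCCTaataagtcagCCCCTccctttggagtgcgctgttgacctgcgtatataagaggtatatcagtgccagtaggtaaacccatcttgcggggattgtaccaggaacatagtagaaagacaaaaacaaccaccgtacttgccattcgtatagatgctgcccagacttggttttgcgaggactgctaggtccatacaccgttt
NQM1: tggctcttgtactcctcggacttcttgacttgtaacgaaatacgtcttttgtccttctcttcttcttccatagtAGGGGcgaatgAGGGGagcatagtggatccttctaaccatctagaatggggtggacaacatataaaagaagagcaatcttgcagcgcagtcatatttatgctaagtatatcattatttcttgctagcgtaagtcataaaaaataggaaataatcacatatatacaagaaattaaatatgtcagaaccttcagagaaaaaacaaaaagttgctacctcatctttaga

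FAL1 (chrIV:486554-486853, plus strand), an RNA helicase of ribosome assembly, and PRP43 (chrVII:283888-284187, minus strand), a helicase of ribosome assembly and splicing, are the largest decreases among ribosome biogenesis genes that hold both PAC and RRPE. FAL1 has 1 GATGAG and 4 AAATTTT matches, and PRP43 has 1 and 2. In the run AAAATTTT the letters match on both strands in overlapping places, and each is counted. In capitals are all matches of both motifs.
FAL1: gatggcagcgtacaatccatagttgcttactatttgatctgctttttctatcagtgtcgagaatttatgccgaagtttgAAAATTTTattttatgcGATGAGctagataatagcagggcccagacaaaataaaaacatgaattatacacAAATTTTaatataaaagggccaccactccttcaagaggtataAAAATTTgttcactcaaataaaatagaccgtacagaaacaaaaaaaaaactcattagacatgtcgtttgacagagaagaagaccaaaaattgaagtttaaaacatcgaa
PRP43: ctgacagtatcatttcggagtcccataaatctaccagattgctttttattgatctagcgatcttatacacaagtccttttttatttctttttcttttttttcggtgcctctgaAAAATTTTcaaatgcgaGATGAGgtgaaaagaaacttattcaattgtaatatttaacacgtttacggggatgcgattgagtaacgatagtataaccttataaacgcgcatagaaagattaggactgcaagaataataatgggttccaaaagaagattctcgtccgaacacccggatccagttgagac

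SAM1 (chrXII:515012-515311, plus strand) is an S-adenosylmethionine synthetase, and GAS1 (chrXIII:886753-887052, plus strand) a glucan-remodelling enzyme of the cell wall. They are the largest decreases with a CTCGAG match among genes with at least 100 FPKM in log cells that overlap no other annotated gene. In capitals is that match, which reads the same on both strands.
SAM1: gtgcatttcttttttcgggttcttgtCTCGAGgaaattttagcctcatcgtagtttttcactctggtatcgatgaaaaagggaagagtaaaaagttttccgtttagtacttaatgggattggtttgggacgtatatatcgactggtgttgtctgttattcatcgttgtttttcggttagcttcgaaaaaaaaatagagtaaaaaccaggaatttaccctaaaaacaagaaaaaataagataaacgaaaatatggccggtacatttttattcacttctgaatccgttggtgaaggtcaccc
GAS1: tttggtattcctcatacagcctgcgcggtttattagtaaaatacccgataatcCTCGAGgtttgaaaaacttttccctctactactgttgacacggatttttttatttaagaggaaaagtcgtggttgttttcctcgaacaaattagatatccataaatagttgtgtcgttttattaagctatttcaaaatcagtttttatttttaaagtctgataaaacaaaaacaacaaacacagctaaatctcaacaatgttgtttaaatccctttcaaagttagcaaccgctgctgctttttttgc

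The RNA that remained in Q cells was spread over few genes. The 10 most abundant RNAs made up 30.6% of summed FPKM in Q and 9.48% in log cells, and the top 50 made up 48.3% and 27.3%. There were 6 genes among the top 50 of both. The highest levels in Q cells belonged to NME1, the RNA of RNase MRP, and RPR1, the RNA of RNase P, which process ribosomal and transfer RNA precursors. NME1 stood at 10499 FPKM in log against 2387 in Q cells, and RPR1 at 11796 and 2291. Both were lower per cell (changes -2.14 and -2.36) and above the median gene (2.80 and 2.57).

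The next places in Q cells were taken by mitochondrial messages and stress genes. OLI1, the membrane ring subunit of ATP synthase, had 2239.6 FPKM, GRE1 1993, COX2 1538, SPG1 1487 and COX1 1476. TMA10, a ribosome-associated protein of stressed cells, had 50.2 FPKM in log against 394 in Q cells. CRS5, a copper-binding metallothionein that the R64 annotation marks as a pseudogene, had 56.7 and 360.3 FPKM. SPG5, a proteasome-assembly factor of stationary phase, had 79.5 and 295 FPKM. Other RNAs among the most abundant of log cells were far down: RPL41B went from 25303 to 93.3 FPKM, the alcohol dehydrogenase ADH1 from 11585 to 53.8 and the wall protein CCW12 from 9967 to 8.60.

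Transcripts of the mitochondrial genome stood near their log level per cell. This genome encodes core subunits of the respiratory chain and ATP synthase and a ribosomal protein, and is transcribed by its own RNA polymerase. Its 25 members had a median change of 0.35, with 9 higher and 4 lower, and their share of summed FPKM was 0.909% in log and 17.7% in Q cells. Among the nuclear chromosomes the median change lay between -5.23 (chromosome XIV) and -4.71 (chromosome I).

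COX1, COX2 and COX3, the catalytic core of cytochrome oxidase, had 919.7, 1209 and 1074 FPKM in log cells and 1476, 1538 and 1152 in Q cells. COB, the cytochrome b of complex III, had 888 and 899.5 FPKM. These 4 differed from log by less than 2-fold and stood between 1667 and 4185 FPKM in DS cells. OLI1 was lower (change -1.27), ATP6 was higher (1.30) and VAR1, the ribosomal protein, was within 2-fold (-0.77). ATP8 had the largest change of the 8 proteins (3.54), from a low 1.37 to 16 FPKM. RPM1, the RNA of mitochondrial RNase P, changed by 1.91. The intron frames AI1 to AI5_BETA and BI2 to BI4 lie within the COX1 and COB genes, so their reads cannot be assigned with certainty.

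Gene lists were read on both scales, and a list with a negative median and a positive relative median was lower per cell but above the median gene. Of 53 lists, 50 had a median at least 2-fold lower in Q cells, 2 lay between -1 and 0, and 1 was above 0. Relative to the median gene, 13 list medians were at least 2-fold above and 16 at least 2-fold below. A count of members called in a list is to be read against the shares of all genes: 94.8% lower and 1.99% higher per cell, and 31.7% above and 32.5% below the median gene. Names of a list with no line of their own in the table, such as those of some highly expressed glycolytic genes, are not analysed here.

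**Figure D4:**
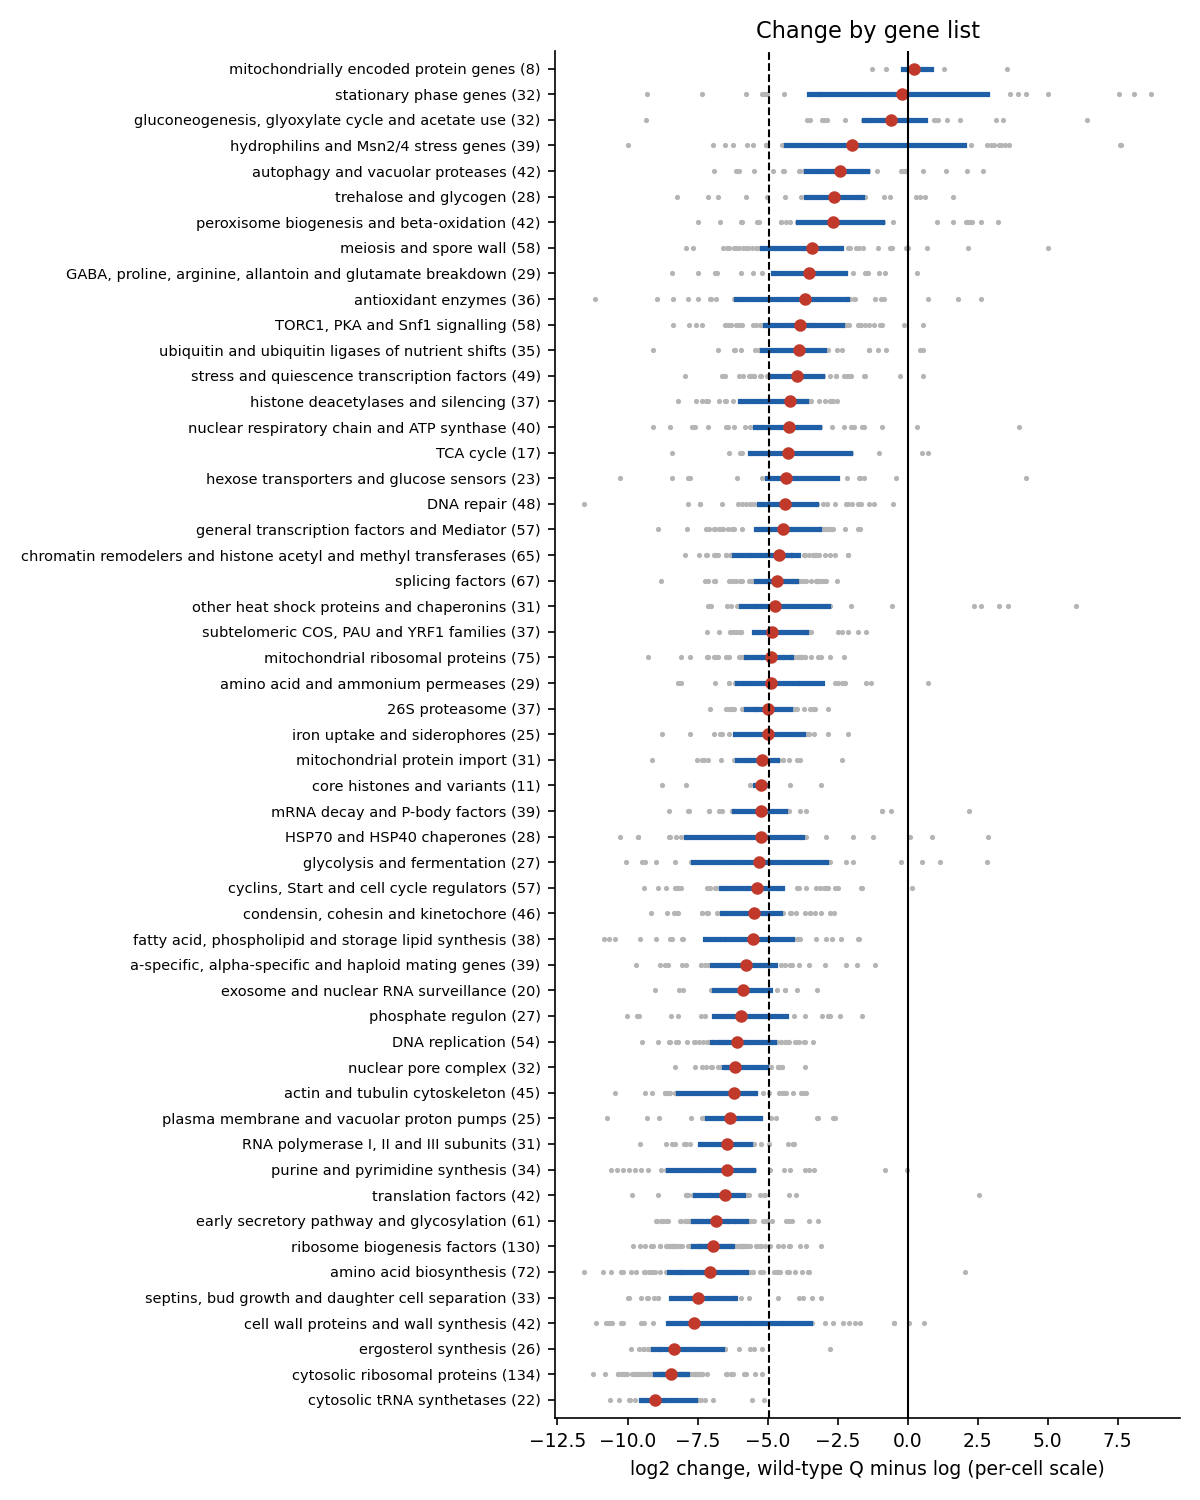
Log2 change (Q minus log, per-cell scale) of every member of 53 gene lists, one list per line with its number of members; grey points are genes, blue bars the span between the quartiles and red points the median. The solid line marks no change and the dashed line the median of all genes (-4.93), with tRNA synthetases (-9.03) at the bottom and mitochondrially encoded proteins (0.22) at the top.

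Genes for making proteins were mostly below the median gene. All 134 cytosolic ribosomal protein genes were lower, with a median change of -8.45, that is -3.52 against the median gene, and 129 of them were at least 2-fold below it. Their share of summed FPKM was 41.1% in log and 3.78% in Q cells. The median member went from 3834 to 10.2 FPKM. The smallest decrease was that of RPS30A, from 5308 to 144 FPKM (-5.21), and the largest that of RPS22A, from 4912 to 2.02 (-11.24). Near-identical copies of many ribosomal proteins share reads, so values of single copies are uncertain.

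Of the 22 cytosolic tRNA synthetases, which charge transfer RNAs with amino acids, all were lower, with the lowest list median (-9.03). FRS1 for phenylalanine went from 413 to 0.260 FPKM (-10.63) and KRS1 for lysine from 800.1 to 0.630 (-10.31). DPS1 for aspartate kept most, at 434 and 12.3 FPKM (-5.14). RRPE letters were in 81.8% of these 22 promoters. All 130 ribosome biogenesis factors were lower (median -6.96), and 107 were at least 2-fold below the median gene. BUD23, a methyltransferase of the small subunit, changed least (-3.10), and the helicase FAL1 most (-9.81). PAC letters were in 87.7% and RRPE letters in 94.6% of these promoters.

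Of 42 translation factors 41 were lower (median -6.54), among them the elongation factor subunit TEF4 (-9.86) and HYP2, a factor carrying the modified residue hypusine, at 6299 FPKM in log against 26.2 in Q cells (-7.91). The helicase gene DBP1 was the 1 higher, from 8.10 to 47.7 FPKM (2.56), while its close relative DED1 went from 1221 to 5.17 (-7.88). The 31 subunits of RNA polymerases I, II and III were all lower (median -6.46). The largest subunits of polymerases II and III, RPO21 (-4.11) and RPO31 (-4.26), were within 2-fold of the median gene. The lowest of all were RPA12 of polymerase I (-9.54), RPA49 and RPO26. These single subunits give no comparison between the enzymes.

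Growth of the cell surface was the other low part of the profile. Of 42 genes of the cell wall 38 were lower, with a median of -7.64. The members were divided: the mannoprotein CIS3 (-11.11), the glucan-remodelling GAS1 (-10.76) and the glucanase SCW4 (-10.65) were among the largest decreases of all genes. GSC2, the glucan synthase subunit of stressed and sporulating cells, stood at 37.9 FPKM in log against 57.6 in Q cells (0.60), and the flocculin FLO10 at 5.39 and 5.58. SPI1 (-0.47), a wall protein of weak-acid stress, was within 2-fold as well.

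All 33 genes of septins, bud growth and daughter cell separation were lower (median -7.48), among them the glucanase-like DSE2 (-9.99) and the septin CDC3 (-9.94). All 26 ergosterol synthesis genes were lower (median -8.35), from ERG5, a desaturase (-9.86), to HMG2, the minor HMG-CoA reductase, which stood above the median gene (-2.79). The 61 genes of the early secretory pathway and glycosylation were all lower (median -6.84), the mannosyltransferase PMT4 most (-8.98) and the small GTPase ARF2 least (-3.19). Of the proton pumps (25 genes, all lower, median -6.36), the plasma membrane ATPase PMA1 went from 4998 to 2.97 FPKM (-10.72).

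Biosynthesis of building blocks followed. Of 72 amino acid biosynthesis genes 71 were lower (median -7.05). SAH1, which breaks down S-adenosylhomocysteine in the methyl cycle, went from 1559.6 to 0.515 FPKM (-11.56), SAM1 changed by -10.88 and PRO1 of proline synthesis by -10.59. The exception was GDH3, a glutamate dehydrogenase of non-fermenting cells, from 17.4 to 71.8 FPKM (2.05). The Gcn4 motif TGACTCA was in 34.7% of these promoters and in 2.7% of all. Of 34 purine and pyrimidine synthesis genes 32 were lower (median -6.46), IMD4 of GTP synthesis (-10.60) and URA7 of CTP synthesis (-10.38) most, while RNR3, the DNA-damage form of ribonucleotide reductase, had 3.98 and 3.91 FPKM.

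Genes of cell division were lower, by amounts nearer to the median gene. DNA replication had 54 of 54 lower (median -6.08), with the helicase component CDC45 (-9.48) and the sliding clamp POL30 (-8.91) at the bottom. The MCB motif ACGCGT was in 46.3% of these promoters and in 3.1% of all. Of 57 cyclins and cell cycle regulators 56 were lower (median -5.37). The mitotic cyclins CLB2 (-9.41) and CLB4 (-8.90) were the lowest, and the phosphatase gene MIH1, which promotes mitotic entry, was within 2-fold, at 21.8 FPKM in log against 24.4 in Q cells. WHI5, a repressor of the start of the cycle, had 3.98 and 1.26 FPKM, -1.66 per cell and 3.28 against the median gene. Actin ACT1 (-8.68) and beta-tubulin TUB2 (-10.45) stood far below the median gene.

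The genes of core histones, histone variants and the linker histone, whose proteins package DNA, were all lower. Their median was -5.23 over 11 genes, with quartiles of -5.44 and -5.06. The linker histone HHO1 changed least, from 86.6 to 10.1 FPKM (-3.10). HTA1 (-4.18), HHF1 (-5.03), HHT2 (-5.08), the centromeric CSE4 (-5.17), HHT1 (-5.23), the variant HTZ1 (-5.23), HTB1 (-5.27) and HHF2 (-5.62) lay close together. HTA2 (-7.92) and HTB2 (-8.76), neighbours on chromosome II and copies of HTA1 and HTB1, were the lowest. Reads of the near-identical histone copies may be shared.

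Several large complexes stood close to the median gene. The 37 proteasome genes were all lower (median -4.97), 6 of them at least 2-fold above and 6 at least 2-fold below the median gene. The activator BLM10 changed least (-2.85) and the core subunit PRE6 most (-7.04). The 75 mitochondrial ribosomal proteins (median -4.87), the 67 splicing factors (-4.66), the 65 chromatin remodelers and histone modifiers (-4.59) and the 57 general transcription factors and Mediator subunits (-4.44) were likewise all lower. On the relative scale these 4 list medians were above 0, at 0.06, 0.27, 0.34 and 0.49. The 37 histone deacetylase and silencing genes had a median of -4.21 (relative 0.73), and RPD3 itself had 70.8 FPKM in log against 2.35 in Q cells.

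Respiration genes of the nucleus moved much as the whole transcriptome did. Of 40 genes of the respiratory chain and ATP synthase 37 were lower (median -4.24, relative 0.69), and 14 were at least 2-fold above the median gene, shares near the 94.8% and 31.7% of all genes. NDE2 was the 1 higher, STF1, a stabiliser of the ATPase inhibitor, was within 2-fold (0.35), and the cytochrome c gene CYC1 was lowest, from 347 to 0.633 FPKM (-9.10). Of 17 TCA cycle genes 15 were lower (median -4.25, relative 0.68). SDH2, the iron-sulphur subunit of succinate dehydrogenase, had 85.0 FPKM in log against 139.6 in Q cells, and CIT3, a minor citrate synthase, 9.09 and 13.1.

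Glycolysis and fermentation genes ranged widely. Of 27 genes 23 were lower and 2 higher (median -5.31). Hexokinase HXK2 went from 1418 to 1.34 FPKM (-10.05), phosphoglycerate kinase PGK1 from 4269.9 to 6.50 (-9.36) and the aldehyde dehydrogenase ALD6 from 1266 to 1.78 (-9.48). ALD3, a stress-induced aldehyde dehydrogenase, was higher (2.82), as was PDC6, a minor pyruvate decarboxylase (1.15). Among the hexose transporters HXT5 was the 1 higher of 23, and 21 were lower (median -4.35, relative 0.58). HXT3 of growing cells went from 1230.5 to 0.998 FPKM (-10.27), and HXT10 stood at 1.02 and 0.767.

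Genes for gluconeogenesis, the glyoxylate cycle and acetate use stood high in the relative order. Of 32 genes 6 were higher per cell and 12 lower (median -0.58, relative 4.35), and 31 were at least 2-fold above the median gene, against 31.7% of all genes. ADY2, ACS1 and JEN1 led, followed by IDP3, a peroxisomal isocitrate dehydrogenase (1.88), and CRC1, a carnitine carrier (1.41). ACS2, the acetyl-CoA synthetase of growing cells, was the only member below the median gene by 2-fold, from 551 to 0.857 FPKM (-9.33). Many of the others were low in both conditions: the median member had 12.2 FPKM in log against 8.71 in Q cells.

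Peroxisomes had 8 of 42 genes higher and 31 lower (median -2.67, relative 2.26). The higher ones were enzymes and transporters of fatty acid breakdown, among them POT1 (3.22), the catalase CTA1 (2.62), the oxidase POX1 (2.29), the transporter subunit PXA1 (2.22), SPS19 (2.17) and FOX2 (2.07). Biogenesis genes such as PEX25 (-5.96) and PEX21 (-6.68), and the ATP carrier ANT1 (-7.47), were at the other end. Autophagy and vacuolar proteases had 3 of 42 higher and 33 lower (median -2.41, relative 2.52). ATG34 (2.69) and AMS1 (2.11), a receptor for selective transport to the vacuole and its mannosidase cargo, and ATG8, the coat protein of autophagosomes, from 33.0 to 85.4 FPKM (1.37), were the higher ones.

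The stores of quiescent cells were represented by 28 trehalose and glycogen genes, of which 1 was higher and 22 lower (median -2.64, relative 2.29), while 22 were at least 2-fold above the median gene. GIP2, a putative partner of protein phosphatase in glycogen metabolism, was higher (1.62). The branching enzyme GLC3 had 36.9 FPKM in log against 45.4 in Q cells, and the acid trehalase ATH1 7.16 and 9.63. The glycogen synthase GSY2 (-5.76) and UGP1 (-6.78), which makes UDP-glucose for both stores, were lower than the median gene.

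Stress genes did not move as one. Of 39 hydrophilins and Msn2/4 targets 11 were higher and 22 lower (median -1.98, relative 2.95), and their share of summed FPKM was 0.635% in log and 10.1% in Q cells. Besides those named above, the members at the low end were the membrane protein MRH1, from 891 to 0.876 FPKM (-9.99), and the glycerol-phosphatase copies HOR2 (-6.96) and RHR2 (-6.53). Of 28 chaperones of the HSP70 and HSP40 families 25 were lower (median -5.24). SSA3, a stress-induced HSP70, was the 1 higher (2.89), and SSA2, an HSP70 of growing cells, went from 3352 to 2.69 FPKM (-10.28). In the other heat shock proteins and chaperonins 5 of 31 were higher and 25 lower (median -4.72, relative 0.21). HSP26, SNO4 (3.57) and HSP12 had the largest increases, SNO4 and HSP32 (2.63) were under 10 FPKM in both conditions, and the HSP90 gene HSC82 was lowest (-7.12).

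Of 32 stationary phase genes 13 were higher and 15 lower (median -0.20, relative 4.74), and their share of summed FPKM was 0.0656% in log and 7.07% in Q cells. NQM1, a transaldolase copy (3.95), was among the higher ones. RGI1 was the lowest, from 46.0 to 0.0726 FPKM (-9.31), and ICY1 next (-7.36). The antioxidant list had 2 of 36 higher, CTA1 and the glutathione peroxidase GPX1 (1.81), and 31 lower (median -3.68, relative 1.26). The flavohaemoglobin YHB1 went from 1921 to 0.836 FPKM (-11.17) and the thioredoxin reductase TRR1 from 458 to 0.920 (-8.96).

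Both lists of regulators of the programme had medians above the median gene. Of 49 stress and quiescence transcription factors none was at least 2-fold higher, 47 were lower (median -3.93, relative 1.00), and 25 were at least 2-fold above the median gene. Over all genes 1.99% were higher, 94.8% lower and 31.7% above the median gene by as much, so the share that was lower was near the share over all genes. XBP1 had 7.28 FPKM in log against 10.6 in Q cells (0.55), and USV1 7.69 and 6.41. MSN4 (-6.52) and SWI5 (-7.96) were at the low end. Of 58 genes of TORC1, protein kinase A and Snf1 signalling none was higher and 54 were lower (median -3.83, relative 1.10). The autophagy kinase ATG1 (0.55) was within 2-fold of its log level, and the stress kinase HOG1 was lowest (-8.39).

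Spore genes were checked because spores are another resting form of yeast. Of 58 meiosis and spore wall genes 2 were higher, SPS100 and SPS19, and 50 were lower (median -3.41, relative 1.52), and the median member had 5.71 FPKM in log against 0.448 in Q cells. Recombination genes such as MEI4 had 4.27 and 0.0439 FPKM, and SPO13 3.65 and 0.0182. Of the genes of one mating type, the a-factor gene MFA1 had 535 FPKM in log cells and the alpha-factor receptor STE2 362, while STE3, the receptor found on alpha cells, had 1.54 FPKM; no label gives the mating type.

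Further large decreases, among genes with at least 10 FPKM in one condition, had a range of roles. VPS63 had the lowest change of all (-14.44, 24.1 FPKM in log), but it overlaps YPT6 and had only 24.1 FPKM to begin with. SRL1, a wall mannoprotein, went from 133 to 0.0132 FPKM (-13.29). TKL1, a transketolase of the pentose phosphate pathway, went from 1171 to 0.325 (-11.82) and GND1, its phosphogluconate dehydrogenase, from 717 to 0.346 (-11.02). IRC7 (-11.75), the putative RNA exonuclease REX4 (-11.99) and the dCMP deaminase DCD1 (-11.99) were close by. Whether strand was used in counting is not stated, so a gene and its antisense neighbour cannot be told apart.

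Genes with no value in Q cells lie outside all these counts. They were mostly low in log cells, with a median of 2.12 FPKM, but 27 of the 133 had at least 10 FPKM there. The highest were RPL2A (3241 FPKM in log), YER090C-A (357), YOR248W (115), RPL22A (114) and RPL39 (95.5). An empty cell is not a measured 0, and no fold is given.

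The changes of genes for related proteins were set side by side in pairs. Pairs were taken as reciprocal best protein matches with at least 40% identity over at least 80% of the longer protein, which gave 478 pairs, 450 of them with both genes among the members. Their changes differed by a median of 1.67 on the log2 scale, taken as the higher minus the lower, so that no difference is negative. The SD of the change across all genes was 2.42. Unrelated pairs were not drawn, so whether related genes differ more or less than others was not tested. In 97 pairs the difference was at least 16-fold, and in 200 the more abundant gene was not the same in log and Q cells. In 20 pairs one gene was at least 2-fold higher in Q cells and the other at least 2-fold lower. In 19 of these the gene with the increase had been the lower one in log cells. Over all 450 pairs the gene with the higher change was the lower one in log cells in 302. The log level enters the change, so part of this follows from how the pairs were ordered and chosen. These pairs were singled out after their values were seen. In 112 of the 450 pairs the proteins were over 95% identical, and their values may share reads.

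Several of the 20 pairs belong to central carbon metabolism. RGI2 went from 1.07 to 201 FPKM while RGI1 went from 46.0 to 0.0726. The transketolases parted with TKL2 from 8.21 to 35.2 FPKM and TKL1 from 1171 to 0.325. NQM1 had 7.30 and 113 FPKM and the main transaldolase TAL1 872 and 1.94. In each of these 3 pairs the gene that was higher in log cells ended under 2 FPKM in Q cells.

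The same exchange was seen at GND2 (6.40 to 15.2 FPKM) against GND1 (717 to 0.346), and at NDE2 against NDE1 (914 to 2.54). ACS1 and ACS2 changed by 3.42 and -9.33, and the glutamate dehydrogenases GDH3 and GDH1 by 2.05 and -9.36. FMP43, a subunit of the mitochondrial pyruvate carrier in respiring cells, changed by 1.86, and its fermentative counterpart YHR162W by -10.41. Relatives of succinate dehydrogenase subunits were higher while the subunits were lower: YJL045W (3.68) against SDH1 (-2.91), YMR118C (1.72) against SDH3 (-5.93) and YLR164W (3.11) against SDH4 (-4.25). SSA3 and SSA4 are the pair that started level, at 14.0 and 13.5 FPKM, and ended at 104 and 1.81.

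**Figure D5:**
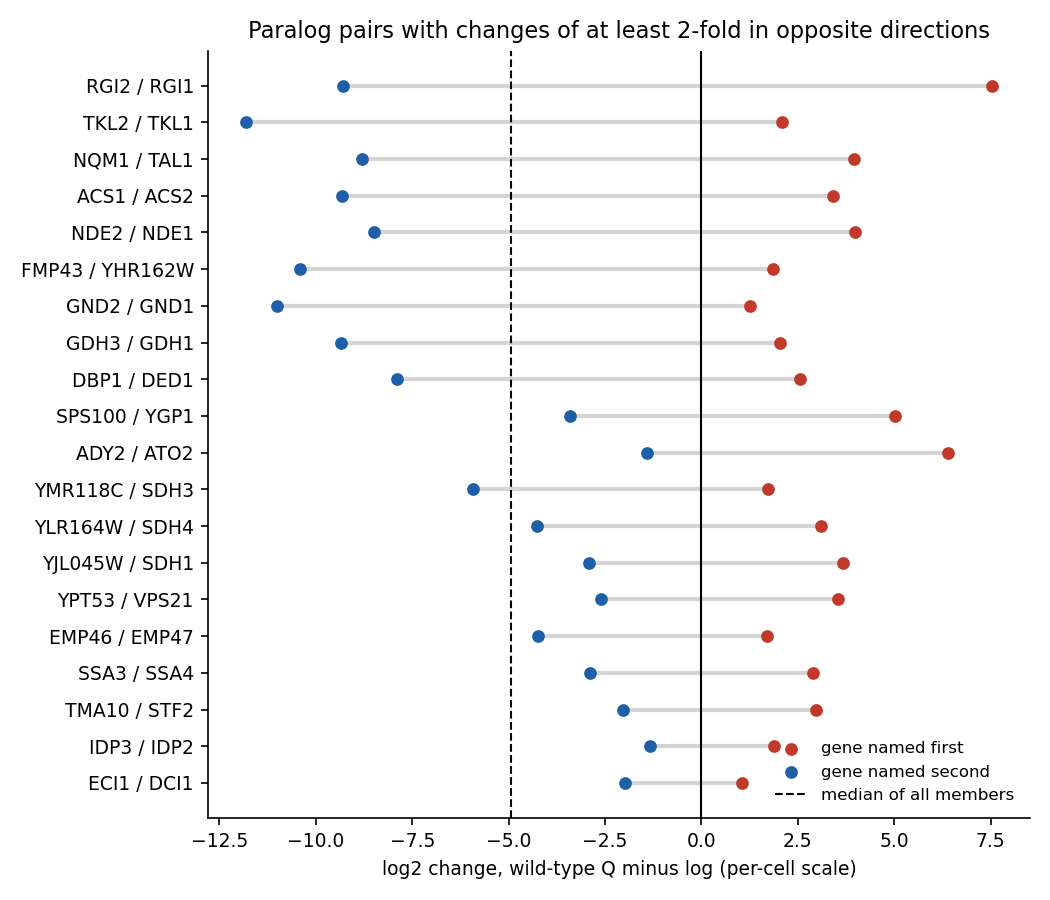
Log2 change (Q minus log, per-cell scale) of both genes of the 20 related pairs in which one is at least 2-fold higher in Q cells (red) and the other at least 2-fold lower (blue), ordered by their difference. The widest pair is RGI2 (7.55) and RGI1 (-9.31), and the narrowest is ECI1 (1.05) and DCI1 (-1.98); the dashed line is the median of all genes.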

How the data were processed

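The authors' processing used CASAVA, TopHat2, SAMtools, Cuffdiff, and version 2.2.1 of Cufflinks, per the submitters' processing notes. Genome build, annotation and settings: not given in the sources used here. Values were deposited by the authors as log2 FPKM, normalized through ERCC spike-ins to RNA per cell, 1 per condition; the way isolates and spike amounts were merged is unstated. The log base was read from the values: in log cells FPKM times gene length in megabases summed to 1292 with base 2 and to 31083 with base e; the first is near what unscaled FPKM sum to by construction. Replicate columns had been planned for; the form for 1 value per condition was used, with a size rule in place of tests.

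Of 6602 named lines, 4 that share 2 names were left out. Changes are plain differences of the deposited log2 values. Names were matched to NCBI RefSeq R64 (5863 of 6375 members), used for lengths, overlaps, promoters and proteins (BLAST+ 2.17.0). Calculations used Python 3.11.15 with numpy 2.4.6, pandas 2.3.3 and matplotlib 3.10.9, and were checked on simulated data. Named genes are mostly the 30 largest changes each way at 10 FPKM or more in one condition, and the 25 highest in Q cells. The 3 at each end of every list, all members of short lists and 5 on each side of the 2-fold limit were also named. Further list members, such as GLC3, GSY2, RPO31, ACT1, CRC1, PXA1 and FOX2, were picked outside these rules. Related pairs, the top of the log cells, TLC1 and genes with no value in Q were added after their values were seen. Members and lists were chosen with earlier results of these data known. Alternatives were pseudocounts, filters, scalings and genes without overlaps.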

Additional observations from a re-analysis of the deposited data

How the results depend on the processing

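The count of genes at least 2-fold higher was 84 with 10 added to each FPKM. Keeping genes with at least 1 FPKM in both conditions left 3416 lower, 1058 above and 1100 below the median gene; adding 10 gave 1173 above. The median change was -4.72, -3.89 and -1.99 with 0.1, 1 and 10 added, -4.90 with no filter, -4.05 with at least 1 FPKM in both, -5.12 with at least 10 in one, and -4.99 without overlapping genes, an alternative chosen after seeing the data. The list medians of gluconeogenesis (-0.58) and stationary phase genes (-0.20), under 2-fold in size, turned to 4.35 and 4.74 when columns were centred on the median gene. They turned to 4.06 and 4.45 with equal sums, and are left out of the next counts. Of 53 list medians, counted only where at least 2-fold in size, the sign of 22 turned when centred and of 17 with equal sums. It turned for 0 lists with 1 added. Centred, with the equal-sum value second where it also turned, they were peroxisomes 2.26 and 1.97, trehalose and glycogen 2.29 and 2.00, hydrophilins 2.95 and 2.66, autophagy 2.52 and 2.23, meiosis 1.52 and 1.23, nitrogen breakdown 1.40 and 1.10, antioxidants 1.26 and 0.96, signalling 1.10 and 0.81, ubiquitin 1.05 and 0.76, transcription factors 1.00 and 0.71, deacetylases 0.73 and 0.44, respiratory chain 0.69 and 0.40, TCA cycle 0.68 and 0.39, hexose transporters 0.58 and 0.29, DNA repair 0.54 and 0.25, general transcription factors 0.49 and 0.20, and chromatin remodelers 0.34 and 0.047; splicing 0.27, other heat shock proteins 0.21, subtelomeric families 0.077, mitochondrial ribosomal proteins 0.061 and amino acid permeases 0.047 turned only when centred. Of 76 named genes compared 4 turned when centred: NME1 2.80, RPR1 2.57, OLI1 3.67 and AI1 3.71. These turns follow from subtracting the common shift. No paired analysis was possible because the table has 1 pooled value per condition; for the same reason leaving out a replicate or a spike amount was not run. Depth is unknown, so values under 1 FPKM in Q cells have no stated precision.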

Other observations

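Further gene lists gave values not described above. Of 27 genes of the phosphate regulon all were lower per cell (median -5.94). The acid phosphatase copies PHO12 (-9.64) and PHO11 (-9.60) were among the lowest, and PHO89, a sodium-coupled phosphate transporter, had 228 FPKM in log against 74.2 in Q cells (-1.62). The 25 genes of iron uptake were all lower (median -5.0). FTR1 (-8.76) and FET3 (-7.78), the permease and the oxidase of high-affinity uptake, stood at the low end, and CCC1, which moves iron into the vacuole, at the high end (-2.11). Of 29 genes for breakdown of nitrogen sources 27 were lower per cell (median -3.54) and 19 were at least 2-fold above the median gene. GAD1, a glutamate decarboxylase, had 24.3 FPKM in log against 30.8 in Q cells, and CHA1, a serine and threonine deaminase, 153 and 0.453.

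Of 39 mRNA decay genes 35 were lower (median -5.24). DCS2, an inhibitor of the scavenger decapping enzyme, was higher, from 9.94 FPKM in log to 318 in DS and 44.9 in Q cells (2.18), and DCS1, that enzyme, went from 42.0 to 22.1 FPKM. Of 48 DNA repair genes 47 were lower per cell (median -4.39). RAD4 (-0.51), RAD16 (-1.21) and RAD2 (-1.37), all of nucleotide excision repair, were the 3 least changed. Of 35 ubiquitin genes UBC8, which marks gluconeogenic enzymes for breakdown, had 16.6 and 24.1 FPKM (0.54), and UBC4 was lowest (-9.11). The telomerase RNA TLC1 had 348 and 37.0 FPKM (-3.23). Genes with more than 1 coding part, ribosomal protein genes left out, had a median change of -4.31 over 223 genes, against -4.94 over 5473 genes with 1 coding part.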
